A study of Mus musculus with 11 samples.

Results

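The comparison concerns the p21mTert and p21mTertCD libraries of a mouse lung single-cell series, 7 of its 11 libraries, taken by their genotype labels. The 5 p21mTert libraries are labelled +/mTert and the 2 p21mTertCD libraries +/mTertCD, so each mouse also carried a normal p21 (Cdkn1a) copy. The labels do not spell out mTertCD. From the published study it is known as background to be a catalytically inactive telomerase placed in the same locus. Mice were 18 months old by their age labels, apart from p21mTert_1 at 20 months, whose title gives 18. The other libraries serve as reference: 3 heterozygous p21Het libraries (1 aged 19 months by label) and 1 WT library of 18 months. Whole lung was dissociated, red blood cells were lysed, and 3′ RNA was counted in droplets. Barcodes with 1000 to 30000 UMIs (unique molecular identifiers, each standing for 1 captured RNA molecule) and at most 14% mitochondrial UMIs were kept, 43196 of the 69267 kept in all libraries.

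UMIs were summed per library over all kept cells and over 3 gates. Immune cells had at least 1 Ptprc UMI (29986 cells in the 7 libraries), endothelial cells at least 2 UMIs of Cldn5 and Cdh5 together without Ptprc (4378 cells), and epithelial cells at least 1 Epcam UMI without Ptprc (2734 cells). Levels are given as CPM, UMIs per 1000000 of the sum, and the library is the replicate. Genes were tested with edgeR's quasi-likelihood test, and a gene is called where its Benjamini-Hochberg adjusted p is under 0.05. Log2 fold changes are p21mTert minus p21mTertCD throughout, so a negative value is a higher level with the mTertCD allele. The labels do not say whether the libraries come from separate animals, so p-values measure only the spread between these libraries, which may be technical.

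Telomerase reverse transcriptase copies telomere repeats onto chromosome ends, and a catalytically inactive form lacks that activity. The p21 protein is a cyclin-dependent kinase inhibitor induced by p53 and in senescent cells, so an allele placed in the locus is expected to be transcribed where p21 is. Interferons induce antiviral effectors, and interferon-gamma in particular induces the immunity-related and guanylate-binding GTPases and the antigen-presentation genes.

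The kept sums held 37473618 to 57268649 UMIs per library in p21mTert, and 57126817 and 49875270 in p21mTertCD. Per cell, both p21mTertCD libraries were deeper than every p21mTert library. The median was 4133 to 5663 UMIs per kept cell in p21mTert, and 6322.5 and 6454 in p21mTertCD. In the immune gate it was 4446 to 6029, against 6975 and 7132. The gates and the main sums use unthinned counts, so depth and allele are not separated there. The 12 pan-endothelial markers summed to 13945 CPM or more in every endothelial sum of the 7 libraries and to 352.6 CPM or less in the immune and epithelial sums. That list includes Cldn5 and Cdh5, which define the endothelial gate, so the gate itself set part of this contrast. The 12 alveolar type 2 markers summed to 117952 CPM or more in the epithelial sums, but also to 2672 to 7327 CPM in the immune and 957.5 to 9379 CPM in the endothelial sums, so these 2 gates carried epithelial RNA. One library stood apart. In p21mTertCD_1 the B cell receptor gene Cd79a was at 38.8 CPM of the immune sum, against 418.4 in p21mTertCD_2 and 470.4 to 588.9 in p21mTert. Alveolar macrophage markers summed to 13947 CPM of its immune sum, against 3447 in p21mTertCD_2 and 2320 to 5968 in p21mTert. The T cell chemokine gene Ccl5 was at 376.6 CPM of its endothelial sum, against 21.4 in p21mTertCD_2. For the lists described most closely, the median without p21mTertCD_1 is given beside the median with it. No 2 of the 7 libraries shared more than 16 kept barcodes.

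The first question was whether the alleles differ in how strongly the engineered locus was read. Tert, the telomerase gene, was at 2.01, 3.28, 3.07, 2.52 and 2.00 CPM of all kept cells in p21mTert_1 to p21mTert_5 and at 2.59 and 1.90 in p21mTertCD_1 and p21mTertCD_2. The p21Het libraries held 0.544 to 0.842 and WT 1.13, so both allele groups lay above every reference library, while the 2 allele groups overlapped. In log2(CPM + 1) the difference between them was 0.13 in all kept cells, 0.02 in immune, 0.11 in endothelial and 0.17 in epithelial cells (2-sided exact permutation p = 0.476, 0.905, 0.810 and 0.571, where 0.0476 is the smallest possible). Tert was highest in endothelium, at 3.79 to 13.4 CPM in p21mTert and 6.83 and 6.99 in p21mTertCD. Cdkn1a was also highest there, at 416.4 to 692.4 CPM in p21mTert and 431.3 and 425.9 in p21mTertCD. Its differences were -0.02, -0.21, 0.30 and 0.18 in the same order of sums (2-sided exact permutation p = 0.952, 0.476, 0.238 and 0.333). No adjusted p over the 8 tests was under 0.914. An adjusted p under 0.05 would need all 8 tests at the smallest possible p, so the adjusted values cannot decide whether the levels differ. Counting at the 3′ end cannot tell the transcript of either allele from that of the normal genes, so these levels check that Tert RNA is present and not which form is made.

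**Figure D1:**
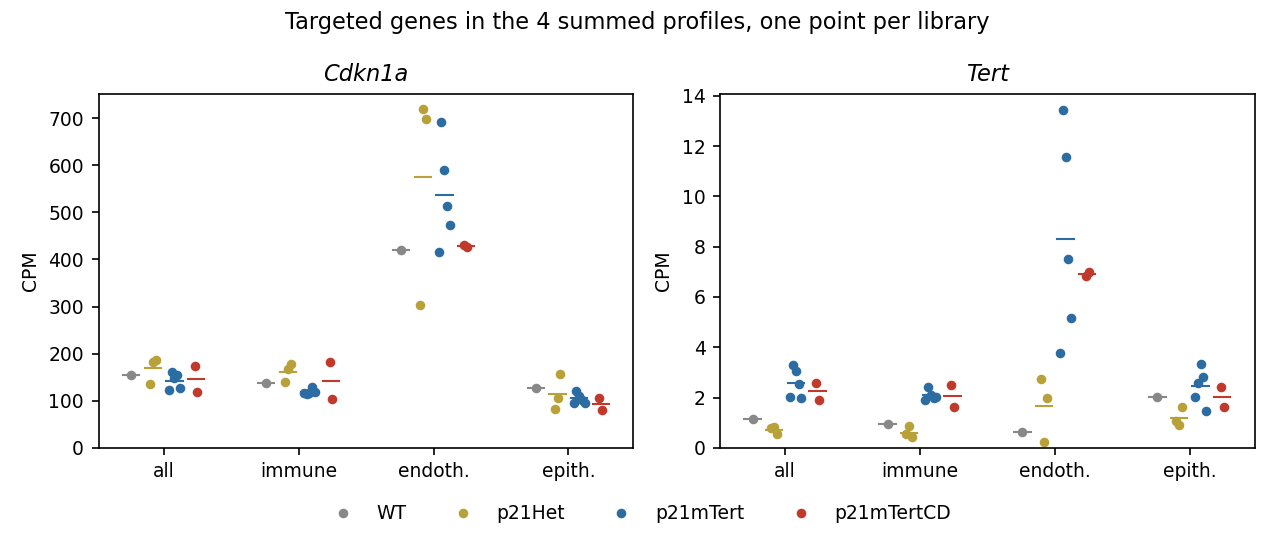
CPM of Cdkn1a (left) and Tert (right) in the sums over all, immune, endothelial and epithelial cells, with one point per library, coloured by group, and a bar at the group mean. Tert lies above the p21Het libraries in p21mTert and p21mTertCD alike, and both genes are highest in endothelium.

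No gate's share of cells passed the adjusted test between the alleles, a test that no single share could pass alone. With each cell thinned to 1000 UMIs, the immune gate held 41.8% ± 6.18 (SD, n = 5) of p21mTert cells and 49.2% ± 2.14 (SD, n = 2) of p21mTertCD cells, with an exact permutation p of 0.238. The endothelial gate held 10.6% ± 2.76 against 6.27% ± 2.31 (exact permutation p = 0.190, n = 5 and 2) and the epithelial gate 2.29% ± 0.417 against 1.45% ± 0.0588 (exact permutation p = 0.0952, n = 5 and 2). The epithelial shares did not overlap, at 1.72% to 2.81% in p21mTert and 1.41% and 1.49% in p21mTertCD. No share passed after adjustment over the 4 shares (lowest adjusted p 0.317). As the smallest possible exact permutation p is 0.0476, a share could pass only if all 4 were at that value. The adjustment therefore cannot decide whether a share differed. On the logit scale the epithelial difference reached the smallest possible exact permutation p of 0.0476 before adjustment. Without thinning the epithelial shares were 7.03% and 4.36%, and the immune shares 66.8% and 76.3%.

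Within the immune gate, T cells took a larger share in p21mTertCD_1 than in any p21mTert library. Cells with a UMI of Cd3d, Cd3e or Cd3g, parts of the T cell receptor complex, made up 50.7% and 37.6% of immune cells in p21mTertCD, against 23.7% to 37.6% in p21mTert. After thinning these became 42.9% and 30.0%, against 19.8% to 30.5%, so p21mTertCD_2 lay within the p21mTert range. In epithelial cells, which should lack these genes, 8.05% and 5.56% of p21mTertCD cells and 1.96% to 4.20% of p21mTert cells had such a UMI before thinning. After thinning these were 2.35% in p21mTertCD_1, 0 of 234 cells in p21mTertCD_2 (which allows up to 1.28%, counting error only) and 0.341% to 1.15% in p21mTert.

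**Figure D2:**
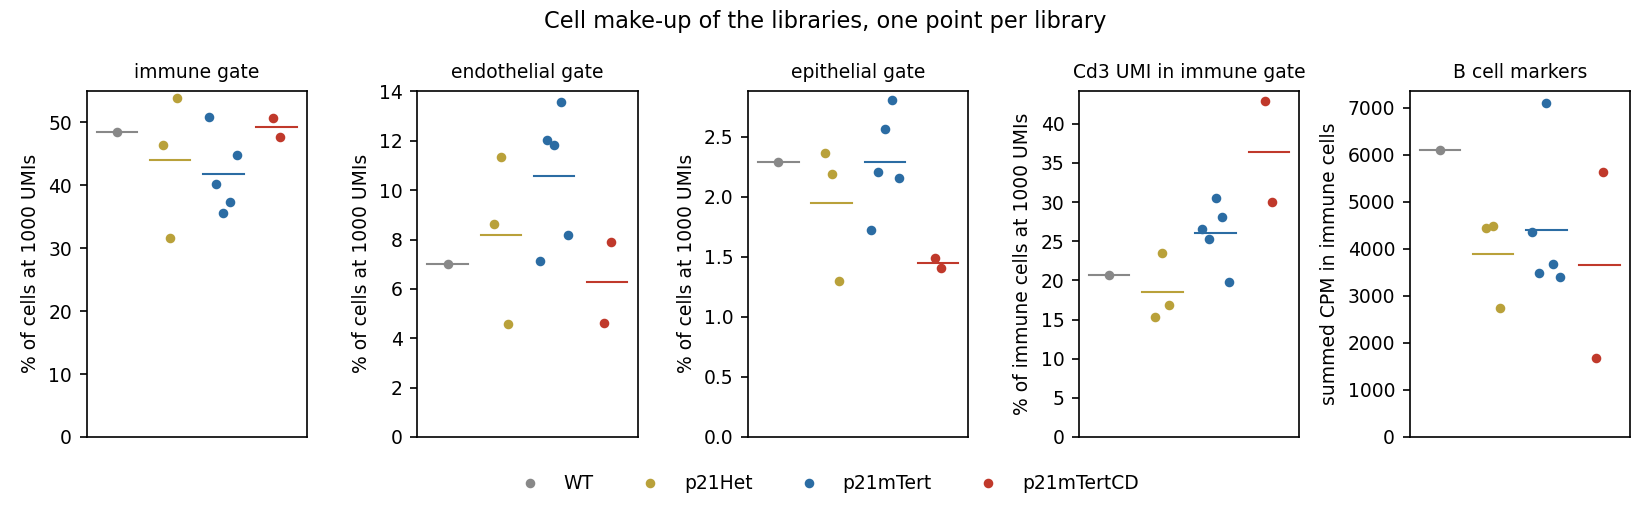
Share of kept cells in the 3 gates and of immune cells with a Cd3d, Cd3e or Cd3g UMI, each with cells thinned to 1000 UMIs, and the summed CPM of 14 B cell markers in immune cells; one point per library and a bar at the group mean. The epithelial shares of p21mTertCD lie below those of p21mTert, and p21mTertCD_1 has the most Cd3 cells and the least B cell marker RNA.

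Few single genes passed across the transcriptome, and this background is what the members' counts are read against. Of 17503 genes tested in all kept cells 1 was called (0.00571%), of 16177 in immune cells 2 (0.0124%), of 11447 in endothelial cells 8 (0.0699%) and of 13061 in epithelial cells 5 (0.0383%). The endothelial calls were 7 lower (0.0612%) and 1 higher in p21mTert (0.00874%), and the epithelial calls 2 lower (0.0153%) and 3 higher (0.023%). The 16 calls fall on 15 genes, since Vsig8 was called in 2 sums. At an unadjusted p under 0.05 there were 2812, 2182, 755 and 938 genes. DESeq2 on the same sums called 587, 339, 44 and 18, and leaving out p21mTertCD_2 raised the edgeR counts to 138, 211, 71 and 6. The median log2 fold change over all genes was 0.02, -0.03, 0.00 and 0.01.

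In endothelium the p21mTertCD libraries carried more RNA of interferon-gamma GTPases, a family that marks and attacks the vacuoles of intracellular pathogens. All 15 members passed the filter on low counts, all 15 had a log2 fold change below 0, and 4 fell in the test: Igtp, Irgm2, Ifi47 and Gbp7. The median over the 15 was -1.42, against 0.00 over all genes. In 11 of the 15 every p21mTert library lay below both p21mTertCD libraries, where 3.73% of all tested genes did so. In the same 11 both p21mTertCD libraries also lay above all 9 other libraries of the series, where 1.42% of tested genes did.

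The promoters of the 4 called members are shown because these genes moved together. The sequences are RefSeq's (GRCm38.p6), from 250 bases before to 50 after each gene start as RefSeq places it, 5′ to 3′ on the plus strand, on which all 4 genes lie. For Irgm2 that start lies inside the gene as GENCODE draws it (58199618 to 58222782), so the annotations disagree on where it begins. The windows are Igtp at chr11:58199306-58199605, Irgm2 at chr11:58214727-58215026, Gbp7 at chr3:142530086-142530385 and Ifi47 at chr11:49076337-49076636. Capitals mark matches to GAAANNGAAA, the core letters of an interferon-stimulated response element, searched on both strands.
Igtp: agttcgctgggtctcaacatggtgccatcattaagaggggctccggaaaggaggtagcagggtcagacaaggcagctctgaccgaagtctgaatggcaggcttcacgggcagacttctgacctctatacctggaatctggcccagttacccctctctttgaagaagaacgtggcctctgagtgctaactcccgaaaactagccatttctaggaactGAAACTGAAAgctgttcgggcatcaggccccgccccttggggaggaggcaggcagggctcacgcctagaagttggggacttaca
Irgm2: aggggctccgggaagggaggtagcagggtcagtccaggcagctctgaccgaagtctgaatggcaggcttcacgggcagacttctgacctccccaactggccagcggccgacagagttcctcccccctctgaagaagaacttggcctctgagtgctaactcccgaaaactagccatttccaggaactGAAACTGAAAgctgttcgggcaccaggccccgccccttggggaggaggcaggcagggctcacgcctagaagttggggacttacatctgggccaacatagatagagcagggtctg
Gbp7: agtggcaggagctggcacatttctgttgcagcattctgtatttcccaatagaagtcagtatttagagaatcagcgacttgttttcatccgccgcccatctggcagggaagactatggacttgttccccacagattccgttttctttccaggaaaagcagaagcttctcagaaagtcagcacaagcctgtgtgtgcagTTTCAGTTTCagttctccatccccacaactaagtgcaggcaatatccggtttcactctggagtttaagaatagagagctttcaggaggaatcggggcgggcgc
Ifi47: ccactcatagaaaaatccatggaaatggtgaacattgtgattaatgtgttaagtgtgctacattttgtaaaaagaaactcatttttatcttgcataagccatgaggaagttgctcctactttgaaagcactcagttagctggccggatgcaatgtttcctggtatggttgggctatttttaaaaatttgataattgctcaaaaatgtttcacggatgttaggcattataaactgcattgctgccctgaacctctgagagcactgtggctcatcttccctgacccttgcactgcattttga
Igtp, Irgm2 and Gbp7 each held 1 match, and the Ifi47 window held none. Of the 32851 promoters in the table, 3.44% held a match. Promoters were found for 10 of the 15 GTPases, and all 6 of these that were not called (Gbp2, Gbp3, Gbp5, Irgm1, Tgtp1 and Tgtp2) also held a match. A match describes the letters in the window and does not show a bound site.

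Igtp, an immunity-related GTPase (ENSMUSG00000078853, chromosome 11, 58199556 to 58207591), stood at 37.3, 23.4, 44.2, 37.7 and 40.2 CPM in p21mTert_1 to p21mTert_5 and at 193.4 and 83.2 in p21mTertCD_1 and p21mTertCD_2. The lowest p21mTertCD value lay far above the highest p21mTert value, and the reference libraries (26.3 to 33.4) lay with p21mTert. It fell by 1.97 ± 0.30 (SE) on the log2 scale, at an adjusted p of 0.0481 in edgeR. Irgm2, a regulatory member of the same family (chromosome 11, 58199618 to 58222782), was at 36.6, 37.1, 49.4, 48.6 and 46.3 CPM against 155.8 and 94.0, a log2 fold change of -1.55 ± 0.22. The 2 annotated genes overlap on the same strand, so reads from one could be counted for the other and the split between them is uncertain.

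Ifi47, also an immunity-related GTPase (chromosome 11, 49076587 to 49096974), was at 65.7, 46.0, 53.6, 58.5 and 66.5 CPM in p21mTert and 155.1 and 104.9 in p21mTertCD. It fell by 1.23 ± 0.16 on the log2 scale. Gbp7, a guanylate-binding protein (chromosome 3, 142530342 to 142550149), was at 139.6, 103.3, 130.1, 145.0 and 168.5 CPM against 447.7 and 231.6, and fell by 1.39 ± 0.21. Neither gene's groups overlapped, and in both the p21Het libraries (50.3 to 54.4 and 111.1 to 141.4 CPM) lay within or close to the p21mTert range. All 8 endothelial calls shared the adjusted p of 0.0481.

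Among members that did not pass, Gbp4 was at 58.5 to 85.6 CPM in p21mTert and 365.0 and 126.3 in p21mTertCD (adjusted p = 0.103). Iigp1, Irgm1, Gbp5 and Gbp9 overlapped between the groups. In all 15 members p21mTertCD_1 was the higher of the 2 p21mTertCD libraries. Without p21mTertCD_1 the median over the 15 GTPases was -0.70, all 15 stayed below 0 and none was called. Without p21mTertCD_2 it was -1.91, in a fit where p21mTertCD_1 is the only p21mTertCD library.

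**Figure D3:**
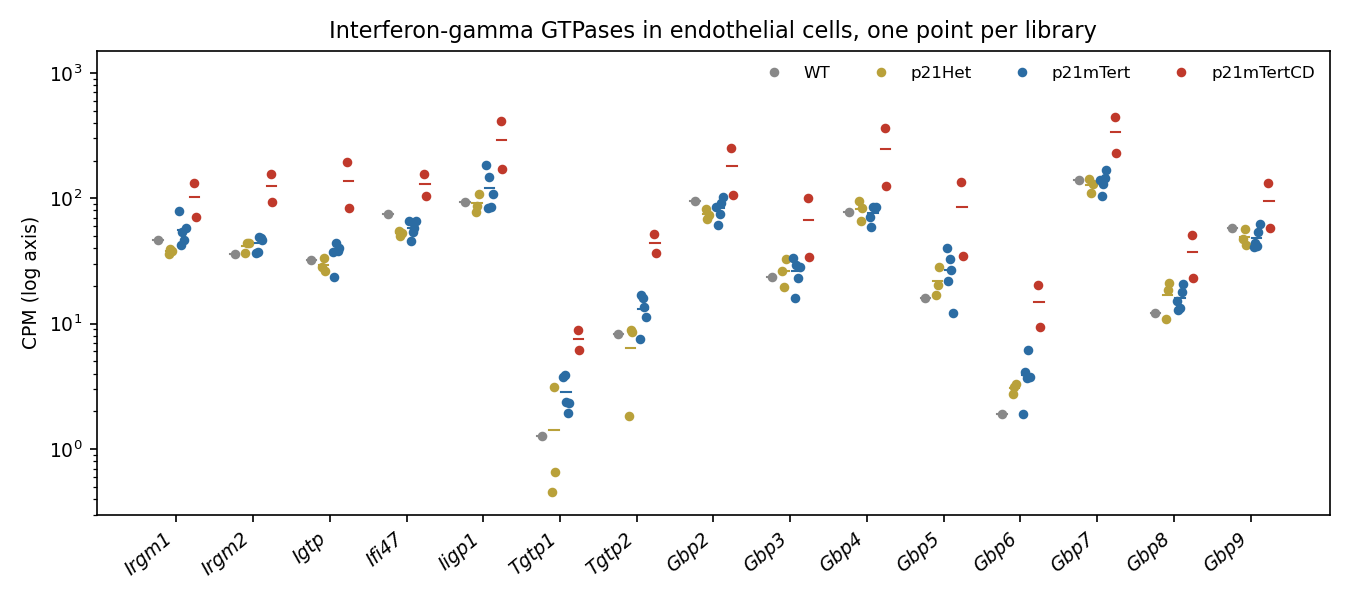
CPM (log axis) of the 15 interferon-gamma GTPases in the endothelial sums, with one point per library, coloured by group, and a bar at the group mean. Both p21mTertCD points lie above every p21mTert point in 11 of the 15 genes, and the p21Het and WT points lie near p21mTert.

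T cells are a source of interferon-gamma and can cling to endothelial cells, so T cell RNA is given beside these values. Of 14 T cell markers 5 passed the filter in endothelium; the 14 summed to 103.9 CPM in p21mTertCD_1, 31.1 in p21mTertCD_2 and 23.1 to 42.9 in p21mTert. Cells with a Cd3 UMI were 6.89% and 2.45% of endothelial cells in p21mTertCD and 0.978% to 1.96% in p21mTert. After thinning they were 2.69% and 0.612% against 0.109% to 0.613%, so p21mTertCD_2 lay within the p21mTert range. With those cells left out, an alternative chosen after seeing the data, the median over the GTPases was -1.38, all 15 stayed below 0, Ifi47 and Irgm2 passed, and Igtp and Gbp7 were at adjusted p = 0.0512 and 0.0513 (edgeR). That alternative drops only cells of the endothelial gate and does not reach T cells outside it. The part of T cells in the allele difference was not tested. Markers of other cells moved in the endothelial sums too, in both directions. Of 10 mural markers 8 were below 0 (median -0.71, 3 without overlap, where 3.73% of tested genes lay lower). All 8 tested B cell markers were above 0 (median 1.73, 3 without overlap, where 6.51% lay higher). Their part was not tested.

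The other 4 endothelial calls lay outside that list of 15. One of them, Gm4951, is also an interferon-inducible GTPase, with Ifgga2 as its synonym in RefSeq. It was not in the list and is not counted with the 15 members. Gm4951 fell by 1.19 ± 0.19, from 96.4 and 67.2 CPM in p21mTertCD to 28.9 to 48.7 in p21mTert. Trf, which encodes transferrin, the iron carrier of plasma, was at 39.2, 35.7, 38.1, 38.3 and 47.3 CPM in p21mTert and 71.1 and 73.8 in p21mTertCD, a log2 fold change of -0.92 ± 0.14. Its 2 p21mTertCD values were close together, unlike those of the GTPases, and Trf did not pass in epithelial cells (log2 fold change -0.03). Cyp2a5, a cytochrome P450 of airway epithelium and liver, was at 0.468 to 6.32 CPM against 64.2 and 14.8 (log2 fold change -4.27 ± 0.66), but WT held 22.3, and epithelial cells of the same libraries held 36.8 to 255.2. Camk2b, a subunit of calcium/calmodulin-dependent kinase II, rose in p21mTert: 17.1, 12.3, 9.73, 12.6 and 13.6 CPM against 2.73 and 2.72, a log2 fold change of 2.17 ± 0.31. The p21Het libraries held 4.49 to 7.32 and WT 10.2, so both p21mTertCD libraries lay below all others.

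The endothelial calls are at the edge of the test. With p21mTertCD_1, any p21mTert or any p21Het library left out, none of the 8 genes was called, and with p21mTertCD_2 left out 71 genes were.

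Antigen-presentation genes followed the GTPases in endothelium without passing. All 18 genes of MHC class I presentation had a log2 fold change below 0 (median -0.61), 10 without overlap, where 3.73% of tested genes lay lower, and none was called. Without p21mTertCD_1 the median was -0.22, with all 18 below 0. B2m, the shared light chain, was at 1794, 2054, 1974, 2459 and 2315 CPM in p21mTert and 3563 and 2590 in p21mTertCD. Of 9 tested genes of MHC class II presentation 8 were below 0 (median -0.88) and 7 lay lower without overlap, against the same 3.73%. Cd74, the invariant chain, was at 1027, 948, 1434, 1533 and 1195 CPM against 3002 and 2047 (log2 fold change -1.11, adjusted p = 0.490). Ciita, the class II transactivator, was at 31.6 to 43.4 CPM against 138.7 and 63.3 (log2 fold change -1.46, adjusted p = 0.121).

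The GTPase and class I lists were not low in endothelium alone. In immune cells 15 of 15 GTPases (median -0.59, 6 without overlap) and 16 of 18 class I genes (median -0.35, 9 without overlap) were below 0. There 2.86% of tested genes lay lower without overlap. In all kept cells 12 of 15 GTPases and 12 of 18 class I genes did so, against 4.28%. The class II list stood otherwise in the other gates. In immune cells, where B cells and dendritic cells carry these genes constitutively, its median was 0.23 with 10 of 11 above 0, and in epithelial cells 0.01. Without p21mTertCD_1, which had the least Cd79a, the immune median was -0.07, while the endothelial median was -0.58. The difference between lineages was not called for any gene between endothelial and immune cells with edgeR (0 of 15382 at adjusted p under 0.05, 1584 at unadjusted p under 0.05, DESeq2 not run on it).

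Antiviral interferon-stimulated genes had a median below 0 in all 4 sums, though no member passed in any sum with edgeR and the epithelial median turned to 0.05 without p21mTertCD_1. All 32 had a log2 fold change below 0 in all kept cells (median -0.91) and in immune cells (median -0.95). In immune cells 29 of the 32 did not overlap, where 2.86% of tested genes lay lower without overlap. In all kept cells 30 of 32 did not overlap, against 4.28%. In endothelium all 28 tested were below 0 (median -0.89, 18 without overlap, where 3.73% of tested genes lay lower) and in epithelium all 27 (median -0.58, 6 without overlap, where 4.28% of tested genes did so). In 20 of the 32 immune values, both p21mTertCD libraries lay above all other 9 libraries, where 1.42% of tested genes did. As a summed level the list did not set p21mTertCD apart from every reference library: in immune cells it stood at 2809 and 2581 CPM in p21mTertCD, 2628 in p21Het_3, 1063 and 1763 in the other p21Het libraries and 1220 to 1791 in p21mTert.

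Ifi27l2a, an interferon-induced mitochondrial protein, was at 299.9, 429.9, 293.9, 383.5 and 353.3 CPM of immune cells in p21mTert and 820.6 and 711.2 in p21mTertCD. The groups were far apart, and the log2 fold change was -1.23 ± 0.35 (adjusted p = 0.277). Ifitm3, which blocks viral entry, was at 275.9 to 624.1 CPM against 754.1 and 786.6 (adjusted p = 0.428). Zbp1, a sensor of Z-form nucleic acid, was at 33.7, 35.5, 35.4, 35.2 and 35.9 CPM against 73.3 and 54.1 (log2 fold change -0.98, adjusted p = 0.156); it was chosen after its values were seen.

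In immune cells and endothelium the antiviral list kept its sign without either p21mTertCD library. Without p21mTertCD_1 the antiviral median was -0.73 in immune cells and -0.46 in endothelium, with all 32 and 28 genes below 0. Without p21mTertCD_2 the median was -1.09 and -1.31. Each of these fits sets a single p21mTertCD library against p21mTert, so they give effect sizes only. In epithelium without p21mTertCD_1, 12 of 27 antiviral genes were below 0, and the GTPase median was 0.23, with 2 of 11 below 0. Without Cd3 cells the antiviral median was -1.06 in immune cells and -0.87 in endothelium.

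**Figure D4:**
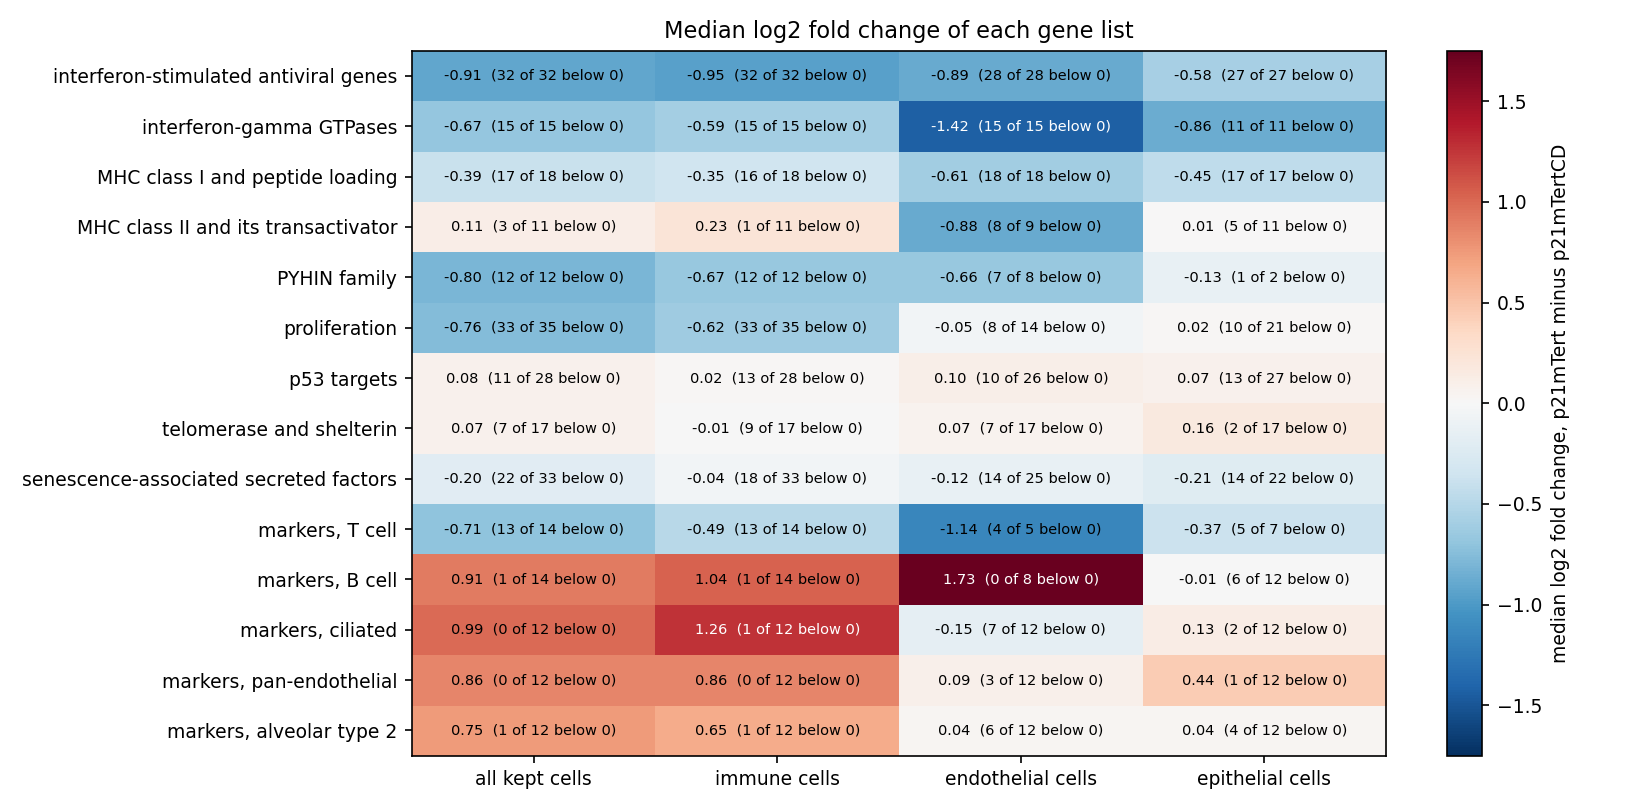
Median log2 fold change (p21mTert minus p21mTertCD) of 14 gene lists in the 4 sums, with the number of tested members below 0; blue is lower and red higher in p21mTert. The antiviral and GTPase lists are below 0 in all 4 sums, and p53 targets and telomerase genes lie between -0.01 and 0.16.

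In immune cells the calls were Cst7 and Vsig8. Cst7, cystatin F of cytotoxic lymphocytes, fell: it was at 27.1, 28.6, 25.6, 26.0 and 22.3 CPM in p21mTert and 55.9 and 47.0 in p21mTertCD, a log2 fold change of -1.10 ± 0.12 (adjusted p = 0.0310, edgeR). With Cd3 cells left out it turned to 0.87, and it lost its call in 5 of the 10 fits that left out 1 library. Genes near a call included Ifi47 (39.4 to 47.2 CPM against 61.5 and 77.2), Themis, a T cell signalling gene (31.8 to 35.0 CPM against 73.2 and 49.8) and Ms4a4b (331.5 to 371.0 against 852.9 and 597.5), all 3 at adjusted p = 0.0956, and Ms4a4b turned to 0.86 without Cd3 cells. Of 14 T cell markers 13 were below 0 (median -0.49, 5 without overlap, where 2.86% of tested genes lay lower), and without Cd3 cells their median was 0.14. Of 14 B cell markers 13 were above 0 (median 1.04, 10 without overlap, where 14.3% of tested genes lay higher), but without p21mTertCD_1 the median was 0.20. In a sum over a mixed gate, fewer cells of a type and less RNA per cell cannot be told apart. Proliferation genes had a median of -0.62, 33 of 35 below 0 and 1 lower without overlap; their median was 0.09 without Cd3 cells and -0.06 without p21mTertCD_1.

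Among the genes that were higher in p21mTert immune cells without passing were Gm42031 (45.3 to 97.5 CPM against 4.75 and 10.0, adjusted p = 0.149), Ldhb, a lactate dehydrogenase subunit (16.6 to 24.3 against 9.30 and 10.8), and Myb, a transcription factor of blood progenitors (11.6 to 15.1 against 5.67 and 6.70). For Ldhb and Myb the p21Het libraries (17.1 to 23.4 and 9.99 to 14.4 CPM) lay with p21mTert. For Gm42031 they held 4.34 to 13.1 CPM and lay with p21mTertCD.

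A pair of neighbouring genes on chromosome 1 gave the largest log2 fold changes among the called genes, called in different gates. Vsig8, an immunoglobulin-domain membrane protein (ENSMUSG00000049598, 172555938 to 172563717), held 6, 7, 5, 6 and 3 UMIs in the immune sums of p21mTert and 466 and 294 in those of p21mTertCD. That is 0.116 to 0.194 CPM against 9.94 and 7.52, with p21Het at 0.123 to 0.358 and WT at 0.0750. In the immune sums Vsig8 passed the filter on low counts through the p21mTertCD libraries, where it was high. Its immune call is therefore no separate support for the difference. The log2 fold change was -5.76 ± 0.32 (adjusted p = 9.37e-05), and -4.39 in all kept cells (adjusted p = 0.00609). Without p21mTertCD_1 it was -4.10 in all kept cells and no longer called (adjusted p = 0.0564), while the immune call held (adjusted p = 0.00198). Below 10 CPM, it falls outside the rule for naming genes and was chosen after its values were seen. In epithelial cells Vsig8 was at 0.752 to 2.10 CPM against 3.20 and 1.40, and did not pass.

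Slamf8, a receptor of myeloid cells (172581758 to 172590568, on the other strand and 18.0 kb away), was called in epithelial cells. There it held 2, 5, 7, 6 and 1 UMIs in p21mTert and 80 and 51 in p21mTertCD, or 0.184 to 0.750 CPM against 16.02 and 11.9. It fell by 4.68 ± 0.39 on the log2 scale (adjusted p = 0.000480). With p21Het at 0.267 to 0.910 CPM, Slamf8 passed the filter on low counts there through the p21mTertCD libraries, where it was high. Its epithelial call is therefore no separate support for the difference. In immune cells its values overlapped, at 6.36 to 10.4 CPM against 6.25 and 7.77. In endothelium, where neither gene had enough counts to be tested, both lay higher in p21mTertCD: Slamf8 at 1.37 and 1.17 CPM against 0 to 0.263, and Vsig8 at 0.683 and 1.55, which are 1 and 4 UMIs, with none in any p21mTert library. The lineage difference passed for both genes: epithelial minus immune was 5.07 for Vsig8 (adjusted p = 0.000218) and -4.86 for Slamf8 (adjusted p = 2.16e-06). Of 15382 genes 18 passed this test of epithelial against immune cells (0.117%), 17 of them below 0.

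The next gene on the other side of Vsig8, Cfap45, lies 10.1 kb away and encodes a protein of cilia. It was higher in p21mTert in epithelial cells, at 77.0, 107.4, 117.1, 124.2 and 116.0 CPM against 61.9 and 36.7, without passing (log2 fold change 1.10, adjusted p = 0.464). Within 2 Mb on either side of Vsig8, 54 genes were tested in epithelial cells and 83 in immune cells, and none was called besides Slamf8 and Vsig8 themselves, on which the window was placed. In immune cells 9 of the 83 lay higher without overlap (14.3% of tested genes) and 6 lower (2.86%). There 21 of the 83 were at an unadjusted edgeR p under 0.05, where 2182 of 16177 tested genes were. In epithelial cells 7 of the 54 lay higher without overlap (8.4%) and 1 lower (4.28%). Around Cdkn1a itself, which carries the alleles, none of 68 genes was called in all kept cells, 62 in immune, 44 in endothelial or 47 in epithelial cells. At an unadjusted edgeR p under 0.05 there were 7, 7, 7 and 5 of them, in that order. Over all tested genes there were 2812 of 17503, 2182 of 16177, 755 of 11447 and 938 of 13061. Taf11, 1181 kb from Cdkn1a, lay higher in p21mTert endothelium without overlap or a call, and was among the genes filled in by smallest p. In the Cdkn1a window 13 of the 68 did not overlap in all kept cells (9 higher and 4 lower), where 15.9% of all tested genes lay higher and 4.28% lower. In epithelial cells 2 of its 47 lay higher (8.4% of tested genes) and 6 lower (4.28%). These windows were chosen after the values were seen.

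In epithelial cells 3 genes rose in p21mTert and 2 fell. Cd59a, which shields cells from the complement membrane attack complex, was at 36.6, 43.6, 43.4, 46.9 and 41.6 CPM in p21mTert and 9.21 and 11.2 in p21mTertCD. Its log2 fold change was 2.03 ± 0.16 (adjusted p = 0.000480), and the p21Het (11.5 to 17.2) and WT (13.5) libraries lay with p21mTertCD. It passed in all 10 fits that left out 1 library, as did Rell1 and Slamf8 in the same sum. None of the 5 epithelial calls remained with 1500 to 15000 UMIs per cell (Cd59a adjusted p = 0.274) or with cells thinned to 1000 UMIs (Cd59a adjusted p = 0.612). In endothelium the Cd59a groups overlapped, at 9.20 to 13.6 CPM against 9.57 and 11.7 (log2 fold change 0.00). The test of epithelial against endothelial cells called 0 of 15382 genes, so this lineage difference was not shown. In immune cells Cd59a was at 2.56 to 3.70 CPM against 0.938 and 1.07 (log2 fold change 1.57), without overlap or a call.

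Rell1, a membrane protein related to the TNF receptor family, had the same arrangement in the other direction. It was at 12.0, 10.5, 10.2, 9.54 and 8.64 CPM of epithelial cells in p21mTert and 26.4 and 25.7 in p21mTertCD, with p21Het at 23.9 to 28.7 and WT at 21.4. It fell by 1.39 ± 0.13 (adjusted p = 0.00126). In immune cells it was at 23.4 to 33.9 CPM against 50.9 and 52.8 (log2 fold change -0.95, adjusted p = 0.168), without overlap. Camk2b likewise lay higher in p21mTert than in every other library in epithelial cells, at 13.2 to 17.8 CPM against 7.41 and 4.45, with p21Het at 3.83 to 7.21 and WT at 10.3, without passing (adjusted p = 0.272). Such a pattern, all 5 p21mTert libraries beyond all 6 others, was held by 0.268% (higher) and 0.176% (lower) of the genes tested in epithelial cells.

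Cdkn1c, the cyclin-dependent kinase inhibitor p57, rose: it was at 88.0, 69.0, 81.7, 85.6 and 95.6 CPM in p21mTert and 35.9 and 42.3 in p21mTertCD, a log2 fold change of 1.07 ± 0.12 (adjusted p = 0.00453). The p21Het libraries lay between, at 46.3 to 65.6, and WT was the highest at 120.8. Without p21mTertCD_1 its adjusted p was 0.121. It was the single called member of 6 tested CDK inhibitors. Cdkn1b, the inhibitor p27, was at 52.2 to 77.2 CPM against 68.3 in both p21mTertCD libraries. Plcd3, a phospholipase C, rose to 23.3, 22.7, 21.1, 21.2 and 20.6 CPM from 9.21 and 9.36 (log2 fold change 1.20 ± 0.17, adjusted p = 0.0402). It lost its call in 8 of the 10 fits that left out 1 library. The p21Het libraries held 12.7 to 16.1 CPM and WT 8.76, so every p21mTert library also lay above these.

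**Figure D5:**
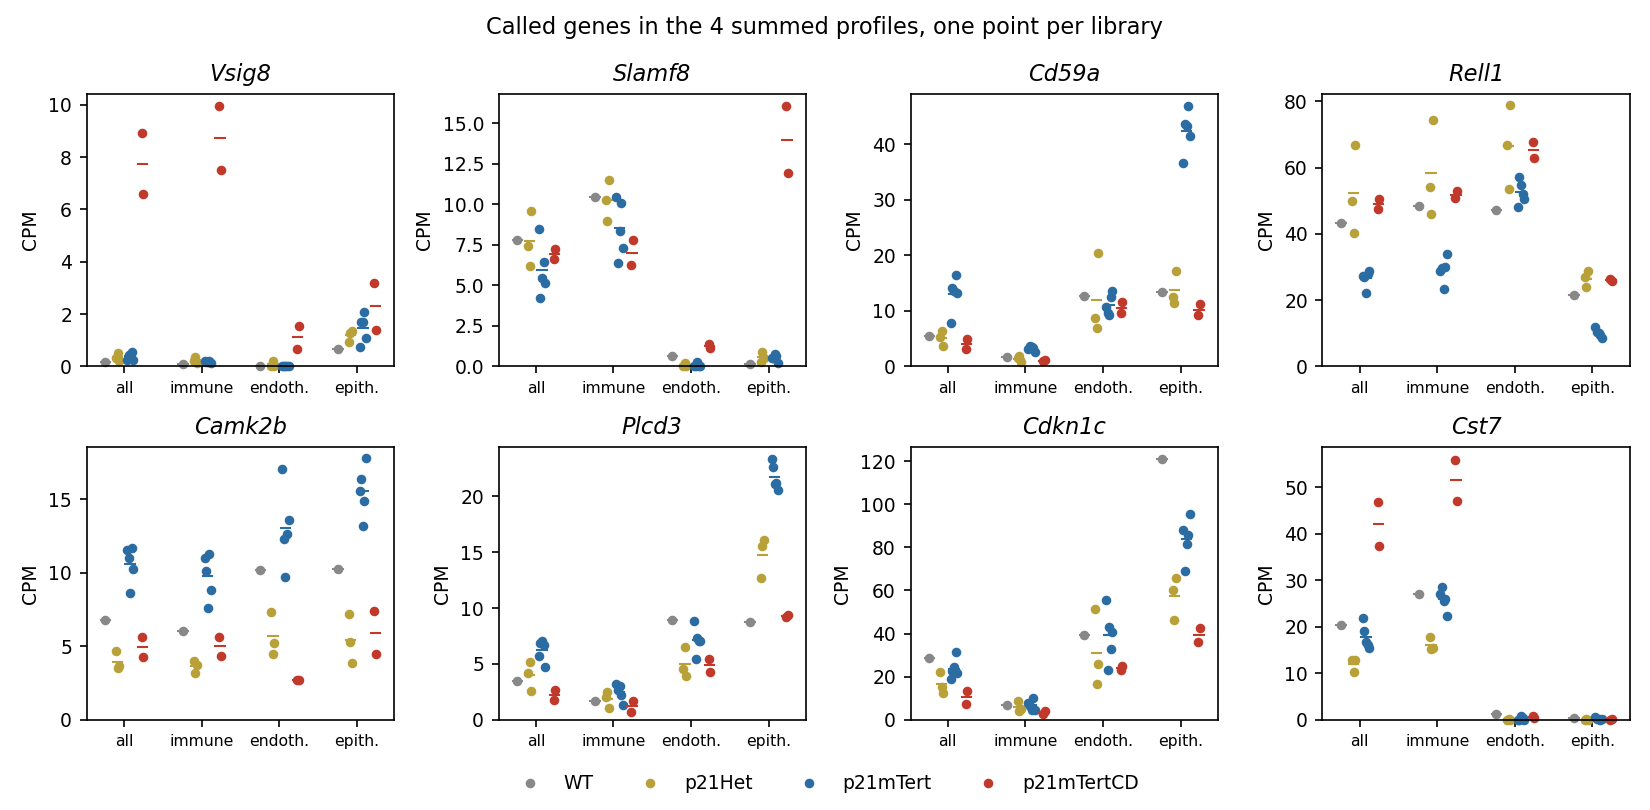
CPM of 8 called genes in the sums over all, immune, endothelial and epithelial cells, with one point per library, coloured by group, and a bar at the group mean. Vsig8 stands out in p21mTertCD immune cells and Slamf8 in p21mTertCD epithelial cells, while in epithelial cells Cd59a, Rell1, Camk2b and Plcd3 set p21mTert apart from the other groups.

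The epithelial identity genes themselves did not pass. Of 20 surfactant and lamellar body genes 11 were above 0 (median 0.03, 1 higher without overlap, where 8.4% of tested genes lay higher), and Sftpc, the surfactant protein C gene, was at 99599 to 124409 CPM against 79424 and 118899. Ciliated markers had a median of 0.13 within the gate. In all kept cells, beside the lower epithelial share of p21mTertCD, 12 of 12 ciliated markers (median 0.99, 11 without overlap, where 15.9% of tested genes lay higher) and 11 of 12 alveolar type 2 markers (median 0.75) were above 0. Markers of other cells did not move one way in the immune sums. There 11 of 12 pan-endothelial markers lay higher in p21mTert without overlap (14.3% of tested genes did), at a summed 280.5 to 352.6 CPM against 136.1 and 198.3. Of the fibroblast, mural and mesothelial markers, 2 of 14, 5 of 11 and 0 of 7 were above 0 (medians -0.24, -0.08 and -0.50). The lymphatic markers summed to 135.5 to 204.5 CPM in p21mTert and to a higher 269.6 and 220.5 in p21mTertCD. By member they were split, with 4 above 0 and 4 below (median 0.00). Of these, 1 lay lower without overlap, where 2.86% of tested genes did. Beside this, 10 genes typical of free RNA in lung droplets (surfactant, airway secretory and globin genes) summed to 8204 to 13243 CPM of the immune sums in p21mTert and 6020 and 3027 in p21mTertCD. All 10 were above 0 (median 0.99), and the part of free RNA in the marker levels was not tested.

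Within endothelium, 11 of 12 aerocyte markers, the gas-exchange capillary cells, were above 0 (median 0.47, 7 without overlap, where 6.51% of tested genes lay higher). Without p21mTertCD_1 that median was 0.31. Emp2, a membrane protein of these cells, was at 810.0, 878.0, 806.6, 979.0 and 892.0 CPM in p21mTert and 435.4 and 661.8 in p21mTertCD (log2 fold change 0.63, adjusted p = 0.812), with p21Het spanning 270.7 to 950.7. All 8 tested lymphatic markers were below 0 (median -0.66, and -0.24 without p21mTertCD_1; 2 lower without overlap, where 3.73% of tested genes were), among them Ccl21a, the lymphatic chemokine, at 937.8 to 1741 CPM against 2534 and 1791 (adjusted p = 0.362). No aerocyte or lymphatic marker was called.

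No member of the lists of telomerase and shelterin genes, p53 targets or senescence-associated secreted factors was called in any sum. The 17 genes of telomerase and shelterin had medians of 0.07 in all kept cells, -0.01 in immune, 0.07 in endothelial and 0.16 in epithelial cells. In epithelial cells 15 of the 17 were above 0 and 4 lay higher without overlap, where 8.4% of tested genes did; without p21mTertCD_1, 10 of 17 were above 0. For the p53 targets (28, 28, 26 and 27 tested) the medians were 0.08, 0.02, 0.10 and 0.07, and for senescence-associated secreted factors (33, 33, 25 and 22 tested) -0.20, -0.04, -0.12 and -0.21. In all kept cells 22 of 33 secreted factors were below 0 and 4 lay lower without overlap, where 4.28% of tested genes did. Their summed level there was 3022 to 4343 CPM in p21mTert and 6123 and 4792 in p21mTertCD, without overlap, and 2851 to 4491 in p21Het. In the immune, endothelial and epithelial sums it overlapped, in immune cells at 3636 to 5475 against 6892 and 5222. T cell markers also summed higher in p21mTertCD in all kept cells, at 2267 and 1872 CPM against 1105 to 1674, and their part in the secreted factors was not tested.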

How the data were processed

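Single-cell 3′ RNA was counted in dissociated lung. The deposited matrices hold raw UMI counts per gene and barcode; per the submitters' processing notes, reads were mapped to mm10 with Cell Ranger, whose release differs between the design text and the file headers. The cell filter follows the thresholds in the series' design text; the authors' removal of outlier cells by cluster and their scran scaling were not repeated. Doublets were not called; an alternative leaves out cells positive for 2 lineages.

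Counts were summed per library and gate and fitted with edgeR 4.0.16 (R 4.3.3; filterByExpr, TMM, quasi-likelihood test, Benjamini-Hochberg adjustment) over the 10 replicated libraries, with WT left out; 7 residual degrees of freedom remained. DESeq2 1.42.0 was an alternative. Shares and the log2(CPM + 1) of Cdkn1a and Tert were compared by exact permutation of the libraries, 2-sided, on the difference in means. Differences between lineages were tested in a fit over the library-by-lineage sums. Shares of single-UMI gates were taken after thinning each cell to 1000 UMIs. On simulated counts with 200 changed genes, 2-fold changes were recovered in 45%, 31%, 37% and 59% and 4-fold changes in 79%, 78%, 86% and 89% of cases in all kept, immune, endothelial and epithelial cells. There 131, 114, 129 and 155 genes were called, against 1, 2, 8 and 5 in the data, and more calls ease the adjusted threshold. The simulated libraries also shared a common mean per gene, with no library standing apart. The rates can therefore be too high for these data.

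Named genes are Cdkn1a and Tert, and per sum and direction up to 8 called genes with no overlap between the groups and a group mean of 10 CPM or more, filled to 5 with those of smallest p that met the same conditions; called list members and the list members of highest CPM are given too. Members, lists and tests were chosen with earlier results of these data known. Gene positions are from GENCODE M21 (30934 of 31053 gene IDs matched). The alternatives were other scaling, low-count filters, cell filters, gates, thinning, deposit terms, a replicate block and leaving out each library. The later deposit is the libraries with ssRNAseq in their titles, which leaves out WT, p21Het_1 and p21mTert_1. Figures were drawn with matplotlib 3.10.9; numpy 2.4.6, pandas 2.3.3 and scipy 1.17.1 were used.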

Additional observations from a re-analysis of the deposited data

Results flagged for a closer look

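The lineage difference of the allele contrast, epithelial minus immune, was 5.07 for Vsig8 and -4.86 for Slamf8 on the log2 scale; both passed an interaction test in edgeR. Vsig8 differed between alleles in immune cells and Slamf8 in epithelial cells. In those gates each passed the filter on low counts through the p21mTertCD libraries, where it was high. In 2 cases the highest p21mTert library lay far from the other 4: Ifi47 in all kept cells, at 42.8 CPM in p21mTert_1, and Cyp2a5 in endothelial cells, at 6.32 CPM in p21mTert_1. Among 56 groups tested this way, chance flags about 1 in 20. By its age label p21mTert_1 is older than the other p21mTert mice, and its accession is among the earlier ones.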

How the results depend on the processing

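Counts of called genes moved with most settings. In all kept cells, where 1 gene was called, there were 587 with DESeq2, 4 with only the 7 libraries, 3 in the later deposit, 2 with 1500 to 15000 UMIs per cell, 2 without Cd3 cells, and 0 with a stricter low-count filter or cells thinned to 1000 UMIs. In immune cells (2 called) there were 339, 37, 1, 1 with 1500 to 15000 UMIs, 1 with a deposit term, and 0 with the stricter filter or thinning. In endothelial cells (8 called) there were 44 with DESeq2, 44 with no low-count filter, 5 with exclusive gates, 3 without Cd3 cells, and 0 with the 7 libraries alone, a deposit term, the later deposit or a 10% mitochondrial limit. In epithelial cells (5 called) there were 18 with DESeq2, 10 with no filter, 8 with the 7 libraries, 3 with the 10% limit, 1 with thinning and 0 with 1500 to 15000 UMIs. Leaving out 1 library gave 1 to 138, 1 to 211, 0 to 71 and 4 to 6; the upper ends are without p21mTertCD_2. The causes were not tested.

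The replicate block left 0, 0, 0 and 1 called genes, and Tert in immune cells at 0.011. Same-numbered libraries correlated in both directions. The 2 p21mTertCD libraries deviate from their mean as mirror images (correlation -1), and the titles of p21mTert_1 and p21Het_1 hold no replicate number. The check therefore cannot decide whether the numbers pair the libraries.

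Lineage differences (0, 18 and 0) became 15, 53 and 2 with the 7 libraries; epithelial minus immune was 10 in the later deposit, 4 with exclusive gates and 1 after thinning, and leaving out 1 library gave 0 to 110, 4 to 142 and 0 to 0. The epithelial share difference on the logit scale (0.451) passed before adjustment over the shares only.

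Without Cd3 cells the sign turned in all kept cells for Cst7 (0.49), Gimap7 (0.27) and Wdr95 (0.070), and in immune cells for Cst7 (0.87), Ms4a4b (0.86) and Wdr95 (0.62). Cdkn1a in all kept cells turned to 0.039 with 1500 to 15000 UMIs, and its log2 level difference to 0.030 in the later deposit, 0.046 thinned and 0.0061 with the 10% limit. The Tert level difference turned to -0.14 (thinned) and -0.011 (exclusive gates) in immune cells and -1.79 (thinned) in epithelial cells. In edgeR the fits without p21mTertCD_2 and without p21mTertCD_1 gave Cdkn1a -0.46 and 0.25 in all kept, -0.75 and 0.091 in immune and -0.076 and 0.40 in epithelial cells, and Tert -0.17 and 0.42 in all kept and -0.40 and 0.26 in immune cells. Level differences ranged, with 1 library left out, for Cdkn1a from -0.30 to 0.26, -0.60 to 0.19, 0.21 to 0.39 and -0.026 to 0.39 in all kept, immune, endothelial and epithelial cells, and for Tert from -0.022 to 0.28, -0.19 to 0.23, -0.080 to 0.32 and -0.010 to 0.36. Share differences ranged from -9.69 to -5.85 points (immune), 2.66 to 5.92 (endothelial), 0.711 to 0.983 (epithelial) and 1.12 to 3.58 (no gate). Over the single genes named and their alternatives, 940 values kept direction and side of the threshold, 162 were weaker, 51 stronger and 13 reversed. The 940 include genes that were not called and stayed so, while only a called gene could become weaker. The 940 therefore do not measure how well the calls held. With 2 p21mTertCD libraries, 2-fold changes of single genes were often beyond reach.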

Other observations

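Immediate early genes of the AP-1 family, which are induced within minutes by stress, tissue dissociation included, were mostly higher in p21mTert without passing. Of 22 such genes 18 were above 0 in all kept cells (median 0.20) and 19 in epithelial cells (median 0.30, 5 higher without overlap, where 8.40% of tested genes lay higher). Without p21mTertCD_1 the medians were 0.056 and 0.090. With 1500 to 15000 UMIs per cell the epithelial median turned to -0.10. In epithelial cells Fosb was at 1249, 1148, 1207, 1195 and 1138 CPM in p21mTert and 591.8 and 1172 in p21mTertCD, so that p21mTertCD_1 alone lay low; Jun (1874 to 2347 against 1165 and 2347) showed the same.

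Heat shock and chaperone genes went the other way in the gates, with 15 of 19 below 0 in immune cells (median -0.15), 16 of 19 in endothelial cells (median -0.22) and 15 of 19 in epithelial cells (median -0.11). Mitochondrially encoded genes were above 0 in 13 of 13 cases in all kept cells (median 0.25) and in epithelial cells (median 0.19). The median mitochondrial share of a cell's UMIs was 6.46% in p21mTert_1 and 3.74% to 4.28% in the other p21mTert libraries. In p21mTertCD it was 2.82% and 4.03%, so p21mTertCD_2 lay within the p21mTert range. WT and p21Het_1, whose titles lack ssRNAseq like that of p21mTert_1, held 6.58% and 6.30%. None of the heat shock, chaperone or mitochondrially encoded genes was called. The PYHIN family of nucleic acid sensors was below 0 in 12 of 12 cases in all kept cells (median -0.80, 5 without overlap, where 4.28% of tested genes lay lower) and in immune cells (median -0.67, 5 without overlap, against 2.86%). Without p21mTertCD_2 the medians were -0.53 and -0.34. In immune cells p21mTertCD_2 was the higher library for Ifi208 (15.6 CPM, against 5.97 in p21mTertCD_1 and 4.78 to 5.71 in p21mTert).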
